A study of Mus musculus with 12 samples.

Results

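Cell division genes were followed across sorted cells of the glioma-bearing and normal mouse brain and blood. The set holds 50 genes named by their roles, 14 for DNA replication, 8 cyclins, cyclin-dependent kinases and E2F, and 28 for mitosis and the splitting of the cell. The rule for membership takes gene names and no measured value, but the set was drawn up with earlier results of these arrays known. Each gene was read from the probe set whose annotation gave its symbol alone and, for 3 genes with several such probe sets, from the brightest by mean over 12 arrays. In this way 49 of the 50 genes had a value, out of 19938 genes in all. Ccnb1 (cyclin B1) had no probe set under its symbol in the annotation used here.

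The arrays were Affymetrix Mouse Gene ST arrays, 12 in all and 1 per condition. All mice were C57BL/6, 7 weeks old by the labels, and the tumor was the GL261 glioma, a mouse cell line grown in the brain for 2 weeks. The labels of the 4 normal arrays carry the same implantation text as the 8 tumor arrays and are taken as normal by their titles and disease state. Cells were sorted by FACS. Microglia (MG, CD11b+/CD45low by the study's methods) and macrophages (MP, CD11b+/CD45high) were taken from normal and tumor brains. Gr1+ and Gr1- cells (Gr-1 Positive and Gr-1 Negative in the labels) were taken from tumor brain and from blood, in mice with tumors. Blood cells labelled macrophage high and macrophage low were taken with and without a tumor. The labels give no further definition of high and low and do not say how many mice went into an array. With 1 array per condition there were no replicates, no test was possible, and every value below is a description of these arrays.

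A dividing cell copies its DNA in S phase, when the MCM helicase opens the double strand and a supply of nucleotides is made, and then parts the copies in mitosis on a spindle of microtubules. Cyclins bound to their kinases drive these steps in order. Many of the genes involved are transcribed in S phase or in G2 and kept silent in resting cells, so that their messenger RNA is widely used as a sign of cycling cells. Resident microglia of the healthy adult brain divide slowly, and blood neutrophils are mature cells that have left the cycle.

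Promoters of 4 genes are shown, each among the 12 highest over background or the 4 widest ranges of its role. Cdk1 followed the other genes at r = 0.83 but was above background on no array. It was 8.18 on blood Gr1+ against 7.85 on normal MP. Top2a and Cdk1 are examples from mitosis and its kinases, Mcm6 from replication, and Kif23 is the gene whose levels went another way. Each sequence is the 250 bases before the annotated start, 5′ to 3′ along the gene, from RefSeq on GRCm38.p6, and all 4 genes lie on the minus strand, at chr11:99024190-99024439, chr10:69352913-69353162, chr1:128359706-128359955 and chr9:61946800-61947049. Capitals mark, on either strand, the NF-Y box CCAAT, the cell cycle homology words TTTGAA and TTCGAA, and the E2F words TTTCGCGC and TTTGGCGC.
Top2a: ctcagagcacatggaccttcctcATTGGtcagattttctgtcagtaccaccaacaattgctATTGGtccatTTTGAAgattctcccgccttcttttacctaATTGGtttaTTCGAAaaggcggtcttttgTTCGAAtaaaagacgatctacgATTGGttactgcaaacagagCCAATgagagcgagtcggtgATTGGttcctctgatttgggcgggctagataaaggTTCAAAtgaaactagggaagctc
Cdk1: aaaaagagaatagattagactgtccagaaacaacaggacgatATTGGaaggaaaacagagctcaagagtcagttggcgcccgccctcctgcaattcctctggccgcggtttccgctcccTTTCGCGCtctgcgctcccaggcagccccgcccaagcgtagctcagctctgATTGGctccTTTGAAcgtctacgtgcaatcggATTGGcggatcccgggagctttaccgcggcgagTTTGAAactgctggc
Mcm6: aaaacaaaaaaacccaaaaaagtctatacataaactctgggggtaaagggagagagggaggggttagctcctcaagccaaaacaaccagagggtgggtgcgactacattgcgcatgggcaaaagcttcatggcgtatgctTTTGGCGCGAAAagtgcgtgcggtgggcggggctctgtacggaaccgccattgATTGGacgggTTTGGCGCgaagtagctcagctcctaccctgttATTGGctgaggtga
Kif23: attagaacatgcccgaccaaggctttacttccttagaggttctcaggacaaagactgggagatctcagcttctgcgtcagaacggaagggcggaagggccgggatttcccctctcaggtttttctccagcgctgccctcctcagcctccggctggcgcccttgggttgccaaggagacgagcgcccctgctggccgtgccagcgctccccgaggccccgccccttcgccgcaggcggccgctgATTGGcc
The Top2a window held 6 CCAAT words and 4 cell cycle homology words, the Cdk1 window 3 CCAAT words, 2 homology words and 1 E2F word, the Mcm6 window 2 CCAAT words and 3 E2F words, and the Kif23 window 1 CCAAT word. The first 2 E2F words of Mcm6 overlap and are printed as 1 run of capitals. Few words were not particular to Kif23, since the Plk1 and Prc1 windows also held 1 CCAAT word alone and the Nuf2 window 0 words. Over the arrays these genes varied with the median of the other genes at r = 0.97, 0.97 and 0.94. Of the 50 genes, 43 had a promoter in the table. CCAAT was found in 29 of the 43 windows (67.4%), against 34.5% of the windows of all 27025 genes in the table. At least 2 CCAAT words were found in 17 (39.5%, against 10.5%). An E2F word was found in 3 (6.98%, against 0.673%), those of Mcm5, Mcm6 and Cdk1, and a homology word in 11 (25.6%, against 17.4%). The median GC content was 59.2% over the 43 windows and 52.0% over all. Over the windows of the 15614 genes measured on the arrays, CCAAT was found in 35.5%, an E2F word in 0.935% and a homology word in 15.1%. Their median GC content was 56.4%. By role, CCAAT was found in 9 of 12 replication, 4 of 6 cyclin and 16 of 25 mitosis windows. These shares describe letters in a fixed window and were not tested.

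Values are log2 signals, and the background level of an array is the 95th percentile of its 1027 olfactory receptor genes. It ran from 8.93 to 9.43 on 11 arrays and was 10.09 on normal blood macrophage high, where 11.2% of all genes lay above it, against 26.3% to 39.1% on the others. That array correlated with the other 11 over all genes at r = 0.47 to 0.73. Several arrays went against their labels by marker genes. The blood Gr1- array held all 11 measured microglia markers above background, with a median of 11.45 against 11.78 on tumor MP, and correlated with tumor MP at r = 0.96. It also held 7 of 7 B cell markers, and 0 of 10 NK cell and 1 of 12 neutrophil markers. Tumor blood macrophage low and normal blood macrophage high held 10 and 9 of 10 NK cell markers, 7 of 7 B cell markers and 0 of 12 neutrophil markers. Blood Gr1+, tumor blood macrophage high and normal blood macrophage low held 9 of 12 neutrophil markers each, and 10, 11 and 9 of 11 monocyte markers. B cell markers were 2 of 7 on blood Gr1+ and 7 of 7 on the other arrays of these. Microglia markers were 5, 2 and 1 of 11 on these arrays, in the same order, and neuron and glia markers 2, 0 and 0 of 11. Blood Gr1+ correlated most closely with tumor Gr1+, at r = 0.94. Normal MP held 12 of 12 neutrophil, 6 of 6 border macrophage and 11 of 11 microglia markers, and tumor Gr1- held 11 of 11 microglia and 5 of 10 NK cell markers. On a sorted sample, fewer dividing cells and less RNA per cell cannot be told apart.

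The number of cell division genes above background differed between arrays. The share of the 49 genes above background was 48.98% on blood Gr1- (24 genes), 46.9% on tumor Gr1- (23), 38.8% on normal MP (19 genes), 32.7% for tumor MP (16) and 16.3% for tumor MG (8). It was 12.2% on tumor blood macrophage high and on tumor blood macrophage low (6 each), 10.2% on blood Gr1+ (5), 6.12% on tumor Gr1+ (3), 2.04% on normal blood macrophage high and low (1 each), and 0 of 49 on normal MG. On normal MG, 27.1% of all genes lay above background. On blood Gr1- and tumor Gr1- the shares of all genes were 37.7% and 39.1%, so the share of the cell division genes lay above that of all genes there. On normal MP (36.3%) and tumor MP (32.0%) it was near that of all genes, and on tumor MG (26.3%) and the other 7 arrays it was below it.

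**Figure D1:**
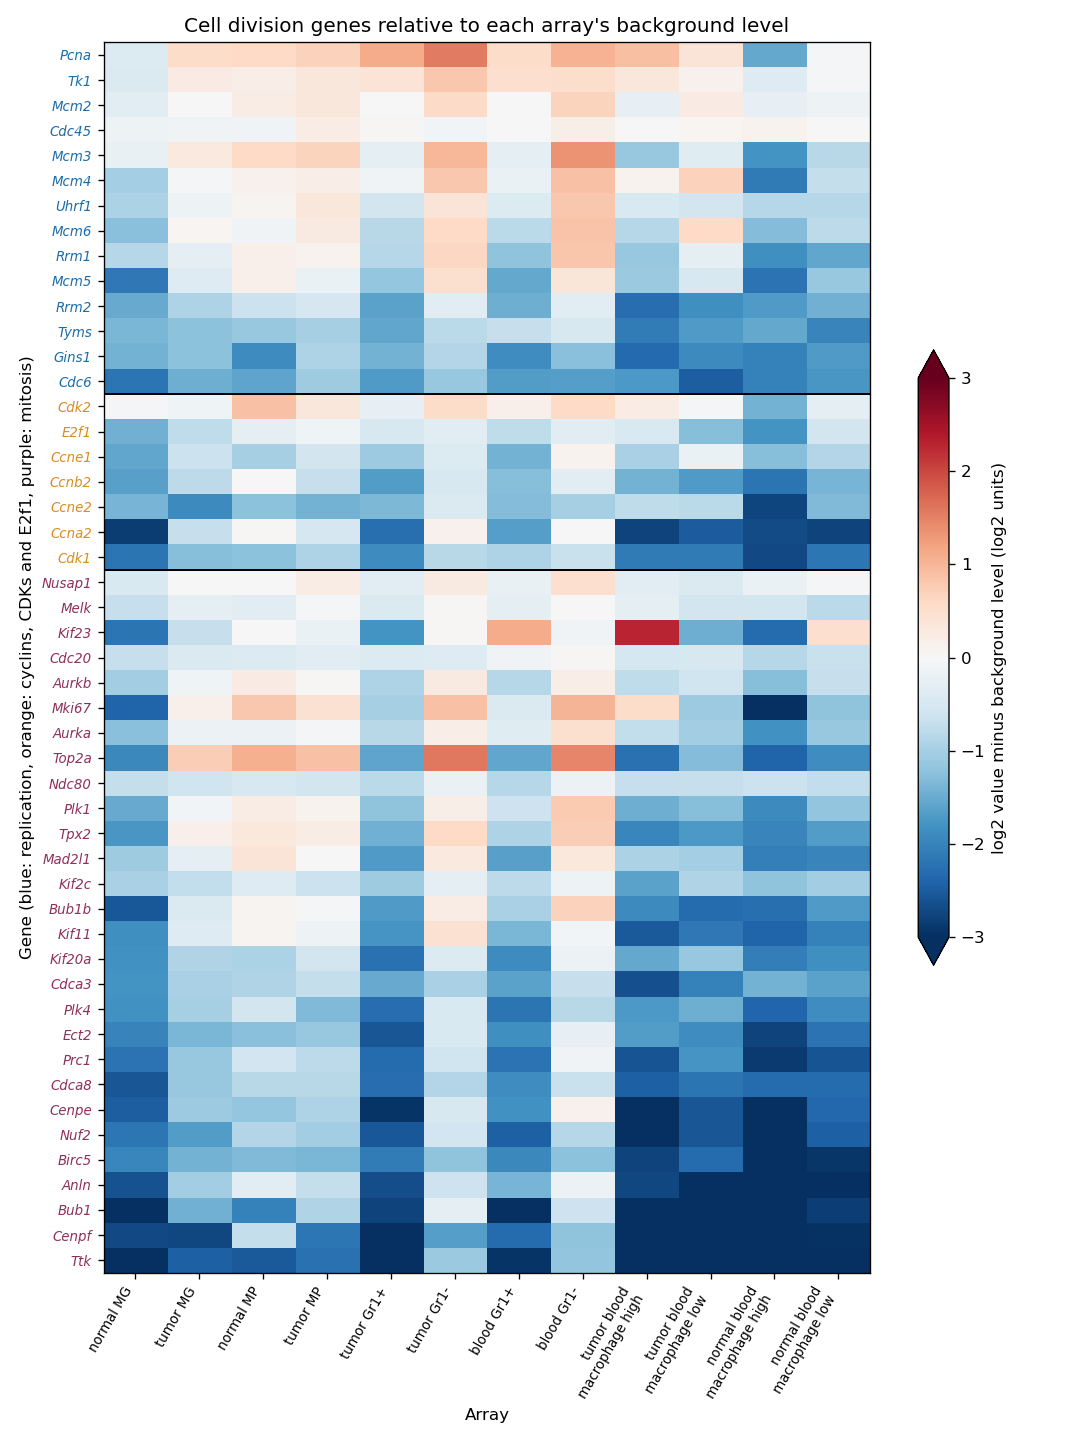
Heat map of 49 cell division genes (rows, by role and then by mean) on 12 arrays (columns). Colour is the log2 value minus the array's background level, red above and blue below. Blood Gr1-, tumor Gr1-, normal MP, tumor MP and tumor MG have 24, 23, 19, 16 and 8 genes above background, and normal MG has 0.

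Over the arrays, 27 genes were above background on at least 1 array and 22 on none, of which 4 were replication genes, 4 cyclins or kinases and 14 mitosis genes. Only 3 genes were above it on more than 6 arrays. Probe sets differ in their own brightness without target, so a value under the level is not a measure of absence. Many genes under it still moved with the others. Ttk, a kinase of the spindle checkpoint, never exceeded 7.84, and had its 3 highest values on blood Gr1- (7.84), tumor Gr1- (7.82) and tumor MP (6.98) and 5.83 on normal MG. Bub1, of the same checkpoint, was 8.66 on tumor Gr1-, 8.41 on blood Gr1- and 8.33 on tumor MP, against 6.35 on normal MG and 5.66 on tumor blood macrophage low.

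The median of the 49 log2 values was highest on blood Gr1-, at 9.01, followed by tumor MP (8.91), normal MP (8.77), tumor MG (8.74) and tumor Gr1- (8.72). The other 7 arrays had medians between 7.56 and 8.06, with 7.87 on normal MG. A step from 8.72 to 8.06 lay between these arrays, and no replicate is there to judge the order within either run. Of the 49 genes, 17 had their highest log2 value on blood Gr1-, 8 on tumor Gr1-, 7 on normal MP and 5 on tumor MP. A further 9 had it on normal blood macrophage high, the array with the high background level. Measured as value minus background, 25 genes were highest on blood Gr1-, 16 on tumor Gr1- and 0 on normal blood macrophage high. The lowest log2 value lay on tumor blood macrophage high for 22 genes and on tumor Gr1+ for 11.

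**Figure D2:**
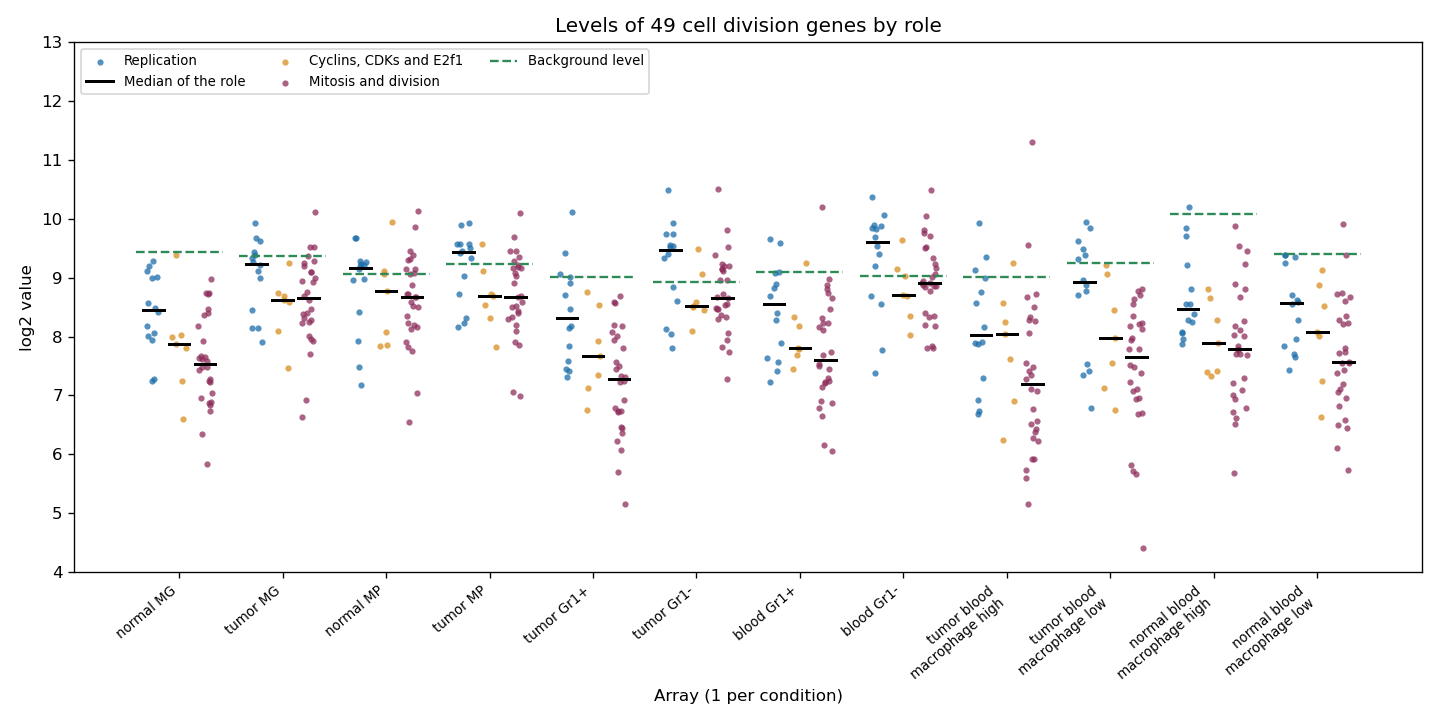
Log2 values of 49 cell division genes on each array, coloured by role, with the median of each role as a black bar and the background level as a dashed green line. The medians of all roles reach 8.53 or more on blood Gr1-, tumor Gr1-, normal MP, tumor MP and tumor MG, and the mitosis median is 7.78 or less on the other 7 arrays.

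Among replication genes, the MCM helicase subunits differed in which arrays were high. Mcm3 was 10.38 on blood Gr1-, 9.94 on tumor Gr1-, 9.90 on tumor MP, 9.68 on normal MP and 9.67 on tumor MG, and was above background on these 5 arrays. It was 9.20 on normal MG, 8.88 on tumor blood macrophage low, 8.82 on blood Gr1+, 8.71 on tumor Gr1+, 8.59 on normal blood macrophage low, 8.29 on normal blood macrophage high and 7.89 on tumor blood macrophage high, below background on each. These groups were split on the Mcm3 values themselves, and the nearest values across the split were 9.67 on tumor MG and 9.20 on normal MG. Mcm6 ran from 8.17 on tumor blood macrophage high to 9.89 on blood Gr1-, and its second highest value was 9.84 on tumor blood macrophage low. Mcm4 was highest on tumor blood macrophage low, at 9.94, with 9.90 on blood Gr1- and 7.96 on normal blood macrophage high. Mcm5 was 7.28 on normal MG and 8.99 to 9.41 on tumor MG, normal MP, tumor MP, tumor Gr1- and blood Gr1-. Mcm2 varied least of the 5 subunits, from 8.77 on tumor blood macrophage high to 9.84 on normal blood macrophage high, and was above background on 7 arrays, not including the last.

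The enzymes that make nucleotides were also read. Rrm1, the large subunit of ribonucleotide reductase, ran from 7.85 on normal blood macrophage low to 9.85 on blood Gr1-, and was above background on normal MP, tumor MP, tumor Gr1- and blood Gr1-. Its partner Rrm2, the subunit made in S phase, was above background on no array, with a range of 6.73 to 8.72 and its highest value on tumor MP. The subunits are read by different probe sets, so their levels cannot be set against each other. Over the arrays they varied alike, with r = 0.870 for Rrm1 and 0.866 for Rrm2 with the median of the other genes. Tk1 (thymidine kinase) ran from 8.99 on normal MG to 9.75 on tumor Gr1-, and Tyms (thymidylate synthase) from 6.92 to 8.55, below background throughout. Uhrf1, which directs DNA methylation to copied DNA, was 9.83 on blood Gr1- and 9.58 on tumor MP, against 8.49 on normal MG.

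Pcna, the clamp that holds DNA polymerase and also serves in DNA repair, had another pattern. It was above background on 9 arrays, at 10.49 on tumor Gr1-, 10.12 on tumor Gr1+, 10.06 on blood Gr1-, 9.93 on tumor blood macrophage high, 9.92 on tumor MG, 9.92 on tumor MP, 9.68 on normal MP, 9.65 on blood Gr1+ and 9.63 on tumor blood macrophage low. It was not above background at 9.38 on normal blood macrophage low, 9.02 on normal MG and 8.55 on normal blood macrophage high. The normal arrays other than normal MP were therefore the lowest for Pcna, and the Gr1+ arrays, low for Top2a, were not low for it. Cdc45, which joins the helicase at the start of copying, was nearly flat at 8.85 to 9.46 on 11 arrays, with 10.20 on normal blood macrophage high. Cdc6, which loads the helicase, and Gins1, which works with it, were below background on all arrays, at 6.79 to 8.17 and 6.68 to 8.32.

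Among cyclins and kinases, Ccna2 (cyclin A2, which acts in S phase and G2) had the widest range. It was 9.11 on normal MP, 9.07 on tumor Gr1-, 9.04 on blood Gr1-, 8.73 on tumor MP and 8.69 on tumor MG. On the other arrays it was 7.45 on blood Gr1+, 7.41 on normal blood macrophage high, 6.75 on tumor Gr1+, 6.75 on tumor blood macrophage low, 6.63 on normal blood macrophage low, 6.59 on normal MG and 6.25 on tumor blood macrophage high. A gap of more than 1 log2 unit lay between these runs, which were read from the same values, and only the 3 highest values were above background. Ccnb2 (cyclin B2, of mitosis) ran from 7.34 on tumor Gr1+ to 9.06 on normal MP. Cdk1, the kinase of both, ran from 6.91 to 8.35. Neither was above background on any array.

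Cyclins of the G1 to S step did not share this order. Ccne1 (cyclin E1) was highest on blood Gr1-, at 9.14, and then on tumor blood macrophage low, at 9.06, with 7.68 on blood Gr1+. Ccne2 (cyclin E2) was 8.51 on tumor Gr1-, 8.45 on tumor blood macrophage low and 7.47 on tumor MG. Cdk2, the kinase of cyclins E and A, stood between 8.66 and 9.94 with its highest value on normal MP, and E2f1, which switches on genes of S phase, between 7.98 and 9.11 with its highest on tumor MP and no value above background.

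Mitosis genes included those with the largest differences between arrays. Top2a, the topoisomerase that untangles copied DNA, was 10.51 on tumor Gr1-, 10.49 on blood Gr1-, 10.13 on normal MP and 10.12 and 10.10 on tumor MG and tumor MP, all above background. It was 7.94 on tumor blood macrophage low, 7.68 on normal blood macrophage high, 7.56 on normal blood macrophage low, 7.53 on blood Gr1+, 7.49 on normal MG, 7.44 on tumor Gr1+ and 6.77 on tumor blood macrophage high. No value of Top2a fell between 7.94 and 10.10. These values come from the brighter of its 2 probe sets. The dimmer probe set did not show this pattern, was above background on no array and ran from 6.43 to 8.51, with its highest value on blood Gr1+, 7.62 on normal MG, 7.50 on tumor MG and 7.60 on tumor Gr1-. The Top2a differences therefore rest on the choice of probe set. The 2 probe sets of Pcna were each above background on 9 arrays, and those of Tk1 on 9 and 7. Mki67, the proliferation marker Ki-67, was 10.05 on blood Gr1-, 9.87 on normal MP, 9.82 on tumor Gr1-, 9.69 on tumor MP and 9.52 on tumor MG. Unlike Top2a it was also above background on tumor blood macrophage high, at 9.56, and its other values were 8.66 on blood Gr1+, 8.21 on normal blood macrophage low, 8.17 on tumor blood macrophage low, 8.01 on tumor Gr1+, 7.04 on normal MG and 6.78 on normal blood macrophage high.

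Several genes of the spindle and its checkpoint were highest on arrays where Mcm3 was above background, and others were not. Plk1, a kinase of mitotic entry, was 9.81 on blood Gr1- and 9.35 on tumor MP, against 7.92 on normal MG and 7.56 on tumor blood macrophage high. Tpx2, which activates Aurka on the spindle, was 9.76 on blood Gr1- and 9.39 to 9.52 on tumor MG, normal MP, tumor MP and tumor Gr1-, and 8.17 or less on the other arrays. Bub1b, of the checkpoint, was 9.71 on blood Gr1- and 6.89 on normal MG, and Kif11, the motor that pushes the spindle poles apart, 9.39 on tumor Gr1- and 6.51 on tumor blood macrophage high. Aurka and Aurkb, the Aurora kinases, reached 9.50 and 9.32. Cenpe, a kinetochore motor, was above background on blood Gr1- alone, at 9.16, and its other values lay between 5.72 and 8.46. Anln (anillin), a scaffold of the furrow that splits the cell, ran from 4.40 on tumor blood macrophage low to 8.86 on blood Gr1- and was above background on none. Ndc80, of the kinetochore, and Kif2c, a motor that takes microtubules apart, had their highest values on normal blood macrophage high, at 9.45 and 8.89, below its background level, and Ndc80 followed the other genes loosely (r = 0.37). Cenpf, another kinetochore gene, was highest on normal MP, at 8.36, and differed little between tumor MG (6.63) and normal MG (6.74). Cdc20 and Melk varied by less than 1 log2 unit, at 8.50 to 9.23 and 8.58 to 9.53, as did Nusap1 on 11 arrays (8.67 to 9.52, with 9.88 on normal blood macrophage high).

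Kif23, the kinesin of the midbody between daughter cells, went another way. It was 11.31 on tumor blood macrophage high, 10.20 on blood Gr1+ and 9.91 on normal blood macrophage low, all above background. These are the 3 blood arrays with 9 of 12 neutrophil markers above background, where Top2a was between 6.77 and 7.56. They also held 11, 10 and 9 of 11 monocyte markers, in this order, and the macrophage arrays among them 7 of 7 B cell markers. Blood Gr1+ held 5 of 11 microglia markers as well. Where Top2a was high, Kif23 was 9.06 for normal MP, 9.03 for tumor MP, 8.96 on tumor Gr1-, 8.91 on blood Gr1- and 8.69 on tumor MG, and of these only the tumor Gr1- value was above background. It was lowest on tumor Gr1+ (7.23) and normal MG (7.24), with 7.79 on tumor blood macrophage low and on normal blood macrophage high. Normal MP, with 12 of 12 neutrophil markers, stood just under its background level of 9.07. The part of neutrophils, monocytes or B cells in the Kif23 values was not tested.

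**Figure D3:**
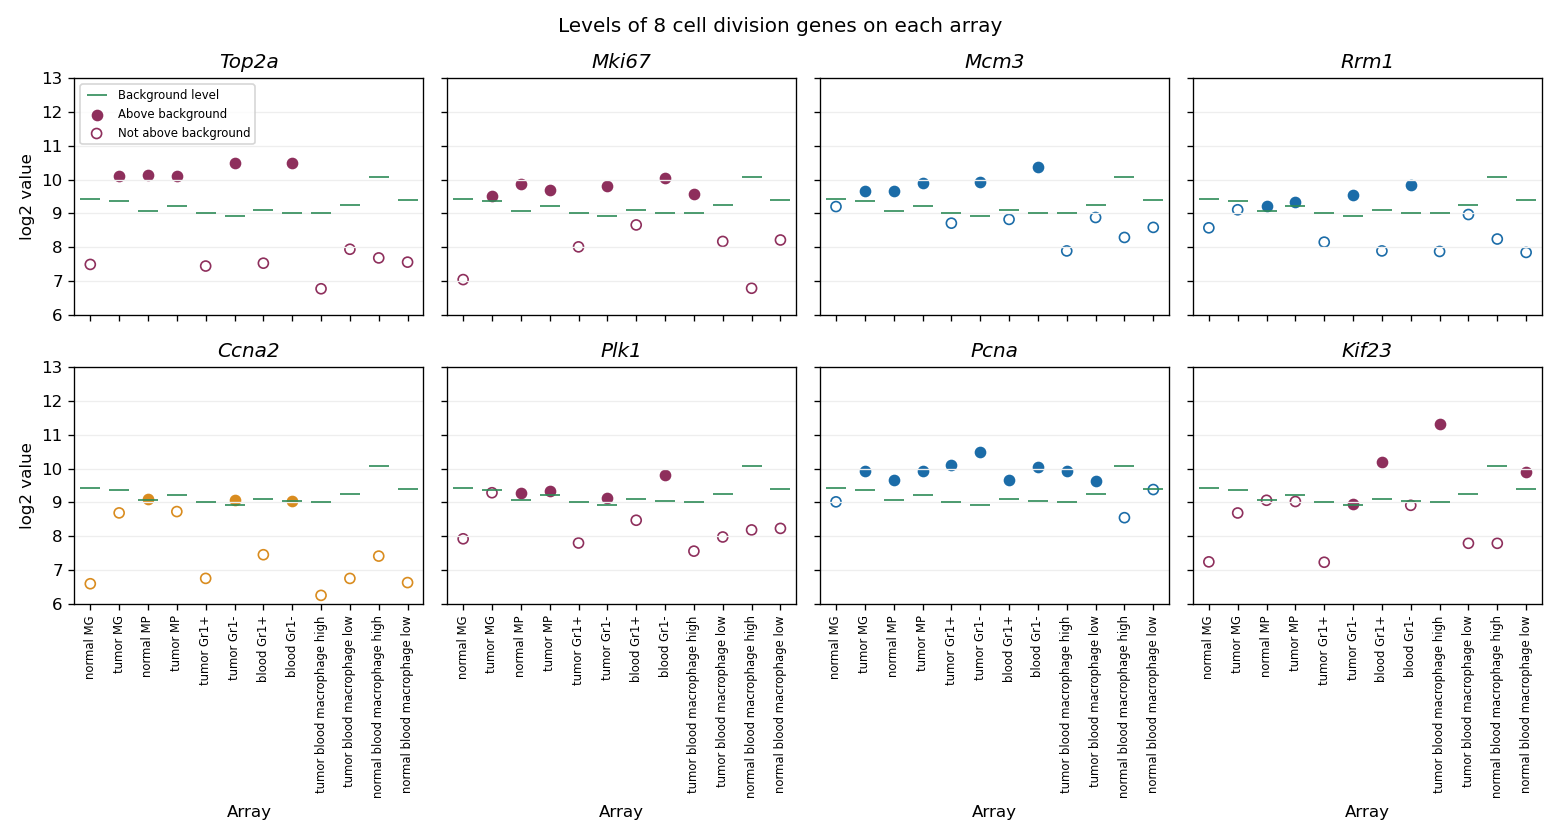
Log2 values of 8 cell division genes on each of 12 arrays (1 point per array, filled where above background), with each array's background level as a green dash. Top2a, Mcm3, Rrm1, Ccna2 and Plk1 are higher on tumor MG, normal MP, tumor MP, tumor Gr1- and blood Gr1- than on the other arrays. Of these genes, Rrm1, Ccna2 and Plk1 are below background on tumor MG, and Ccna2 also on tumor MP. Mki67 is high on the same arrays and on tumor blood macrophage high. Pcna is above background on 9 arrays, and Kif23 peaks at 11.31 on tumor blood macrophage high.

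Over the 12 arrays, the Pearson r of a gene with the median of the other 48 had a median of 0.832. It was over 0.8 for 27 genes and under 0.2 for 3, Cdc45, Ccne2 and Kif23. Without the blood Gr1- and normal blood macrophage high arrays the median r was 0.835 and again 27 genes were over 0.8. The points are arrays of different cell types that share a normalization and an overall brightness, so r is given as a description. Outside the lists of cycle genes, the 8 genes most like the median of the cell division genes, of 10376 genes above background on at least 1 array, were Prr11 (r = 0.98), H1f1 (0.97), C4a (0.91), Pclaf (0.90), H2ac1 (0.89), Pole (0.88), Myh10 (0.88) and C4b (0.88). Prr11 ran from 6.22 to 9.19 and H1f1, a linker histone, from 8.26 to 10.68, each with its highest value on blood Gr1-. Pole is the catalytic subunit of a replicative DNA polymerase and Pclaf binds Pcna. C4a and C4b, complement genes, are near-identical copies, and which of them gave the signal is uncertain.

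For each comparison of 2 arrays, genes at least 2-fold apart (1 log2 unit) were counted beside the share of all 19938 genes past the same line. As deposited, the median log2 difference of all genes was not 0, at -0.09, 0.12, -0.22, 0.04, -0.07, -0.21 and 0.39 in the 7 comparisons in the order given below, and values are read against it. Most of the dimmer values lay under background. For those, the measured difference depends on signal below that level, and the fold against the level itself is given as a lower bound.

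Between tumor MG and normal MG, 17 of 49 genes passed 2-fold upward and 0 downward, where 2.44% of all genes were higher and 3.61% lower. The median log2 difference was 0.76, and 45 of 49 genes were positive. By role, 14 of 28 mitosis genes, 2 of 14 replication genes and 1 of 7 cyclins and kinases were 2-fold higher. On tumor MG only 4 of the 17 were above background (1.37% of all genes were higher in this way). Top2a differed by 2.63 log2 units (10.12 against 7.49), at least 1.61-fold from the background level of normal MG, but by -0.13 on its dimmer probe set and 1.25 on the mean of the 2. Mki67 differed by 2.47 (9.52 against 7.04), Tpx2 by 1.85 and Mcm6 by 1.26, and these were at least 1.06-fold, 1.06-fold and 1.00-fold higher from that level. With every value under background raised to it, 0 genes reached 2-fold. Among the other 13, below background on both arrays, Ccna2 had the largest difference, 2.10 (8.69 against 6.59), then Bub1b (2.04) and Mcm5 (1.71). Monocyte markers moved alongside, with 0 of 11 above background on normal MG and 7 of 11 on tumor MG (medians 7.11 and 9.91). Their part in the difference was not tested.

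Between tumor MP and normal MP, the cell division genes were close. At least 2-fold higher were 2 of 49 (1.65% of all genes) and lower 1 (3.58%), and none of the 3 was above background on either array, where 0.747% and 2.57% of all genes were called. These were Bub1 (8.33 against 7.03), Gins1 (8.32 against 7.18) and, lower, Cenpf (7.06 against 8.36), a kinetochore protein. The median log2 difference was 0.22, against 0.12 for all genes. Top2a differed by -0.03 (10.10 against 10.13), Mki67 by -0.18 and Mcm3 by 0.22. The makeup of the arrays differed, since neutrophil markers above background were 12 of 12 on normal MP and 2 of 12 on tumor MP, and border macrophage markers 6 of 6 and 3 of 6. What these cells added on either side was not tested.

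Between normal MP and normal MG, 15 of 49 genes were higher by 2-fold or more and 0 lower, where 4.35% of all genes were higher and 3.11% lower. Above background on normal MP were 9 of the 15 (3.26% of all genes). Mki67 differed by 2.83 log2 units (9.87 against 7.04), Top2a by 2.64 (10.13 against 7.49), Ccna2 by 2.52 (9.11 against 6.59), Bub1b by 2.25 (9.14 against 6.89) and Mcm5 by 1.95 (9.23 against 7.28). The dimmer probe set of Top2a differed by 0.24, and the mean of the 2 by 1.44. Further genes were Tpx2, Kif11, Plk1 and Mad2l1, with 1.71, 1.56, 1.37 and 1.09. The background level of normal MG, 9.43, was higher than that of normal MP, 9.07. From that level only Top2a (at least 1.62-fold), Mki67 (at least 1.35-fold) and Mad2l1 (at least 1.01-fold) of these were higher, and Ccna2, Bub1b and Mcm5 on normal MP lay under the level of normal MG. Quantile or cyclic loess normalization raised the count of 15 to 23, and with values under background raised to it the count was 0. Normal MP carried the neutrophil and border macrophage markers given above, and their part was not tested.

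**Figure D4:**
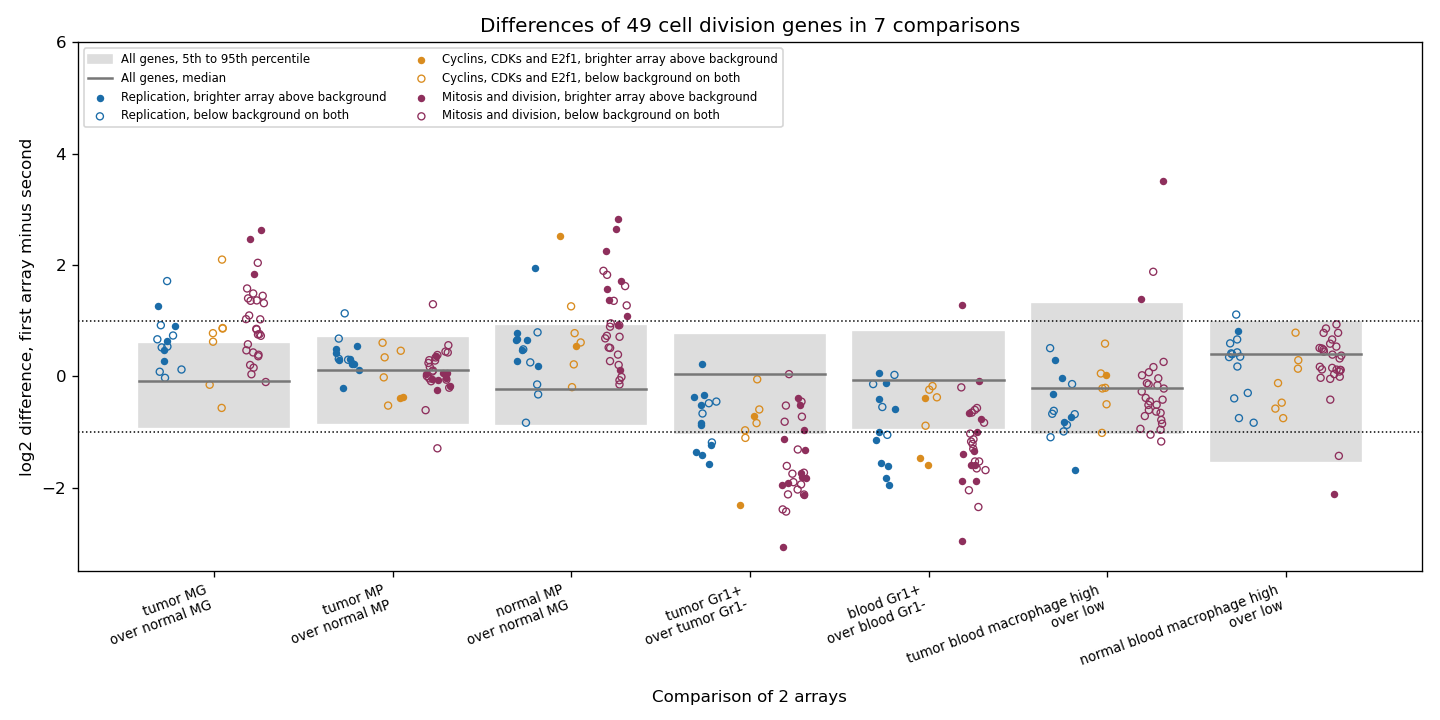
Log2 difference of each of 49 cell division genes in 7 comparisons of 2 arrays, filled where the brighter array is above background and open where both are below, with the 5th to 95th percentile of all genes as a grey box, their median as a grey line and 2-fold as dotted lines. In tumor over normal MG 17 of 49 genes lie above the upper dotted line, in the tumor and blood Gr1 comparisons 27 and 28 lie below the lower line, and in tumor over normal MP 3 lie outside the lines.

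Gr1+ cells of the tumor brain had less signal for cell division genes than Gr1- cells. At least 2-fold lower on Gr1+ were 27 of 49 genes and higher 0, where 5.12% of all genes were lower and 2.88% higher. The median log2 difference was -1.19, and 47 of 49 genes were negative. Of the 27, 20 were mitosis genes, 5 replication genes and 2 cyclins, and 14 were above background on Gr1- (3.13% of all genes). Top2a differed by -3.06 log2 units (7.44 against 10.51), at least 2.82-fold from the background level of the Gr1+ array, and was the 1 gene past 2-fold when values under background were raised to it. Its dimmer probe set differed by -0.07, and the mean of the 2 by -1.57. Mcm3 (8.71 against 9.94) was at least 1.90-fold lower and Mki67 (8.01 against 9.82) at least 1.75-fold lower. Ccna2 differed by -2.32, Kif11 by -2.14, Tpx2 by -1.95, Mad2l1 by -1.92, Bub1b by -1.83, Mcm5 by -1.57, Rrm1 by -1.41 and Mcm6 by -1.36. Pcna did not follow, with -0.37 (10.12 against 10.49). Microglia markers above background were 4 of 11 on Gr1+ and 11 of 11 on Gr1-, NK cell markers 0 and 5 of 10 and dendritic cell markers 1 and 4 of 6. Monocyte markers were 11 of 11 on Gr1+ (median 12.03) and 6 of 11 on Gr1- (9.32). The part of these cells was not tested.

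In the blood of tumor-bearing mice the count was similar. Lower on Gr1+ were 28 of 49 genes and higher 1, where 4.31% of all genes were lower and 3.2% higher, and the median log2 difference was -1.05. Above background on Gr1- were 16 of the 28 (2.41% of all genes), 8 mitosis genes, 6 replication genes and 2 cyclins. Top2a differed by -2.96 log2 units (7.53 against 10.49), at least 2.63-fold from the background level of the Gr1+ array, and Mcm3 by -1.56 (8.82 against 10.38), at least 2.44-fold. These 2 were the genes more than 2-fold lower when values under background were raised to it. The dimmer probe set of Top2a differed by 0.24, and the mean of the 2 by -1.36. Rrm1 differed by -1.96, Mad2l1 by -1.88, Cenpe by -1.87, Mcm5 by -1.83, Mcm6 by -1.61, Bub1b by -1.60, Tpx2 by -1.59, Mki67 by -1.39 and Plk1 by -1.34. Uhrf1 differed by -1.14 here and by -0.87 in the tumor, and Mcm4 was 8.89 against 9.90 here and 8.91 against 9.74 in the tumor. The gene higher on Gr1+ was Kif23, by 1.29 log2 units (10.20 against 8.91), at least 2.26-fold from the level of the Gr1- array (2.46% of all genes were higher and above background). The blood Gr1- array is the one that carried 11 of 11 microglia markers, so this comparison does not set blood Gr1- cells as labelled against Gr1+ cells. The blood Gr1+ array also held 5 of 11 microglia markers. Cell division genes on blood Gr1- had a median absolute difference of 0.27 log2 units to tumor Gr1- and 0.29 to tumor MP. All genes differed less, with 0.22 and 0.20. The largest difference to either was for Cenpe, 0.70 and 0.86.

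Tumor MP and tumor MG were closer. Over the 49 genes the median absolute difference was 0.11 log2 units and the largest 0.50 (E2f1), where all genes had a median of 0.16. Between tumor Gr1+ and blood Gr1+ the median for the 49 genes was 0.26, against 0.22 for all genes, with the largest, 2.97, for Kif23.

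On the blood macrophage arrays few cell division genes were above background. Between high and low of tumor-bearing mice, 3 of 49 were at least 2-fold higher (6.72% of all genes) and 5 lower (5.17%), with a median log2 difference of -0.42 against -0.21 for all genes. Under median centring, quantile or cyclic loess normalization 1 was lower in place of 5. With the brighter array above background, 2 were higher (5.55%) and 1 lower (2.39%). Kif23 differed by 3.52 log2 units (11.31 against 7.79), at least 4.16-fold, Mki67 by 1.39 (9.56 against 8.17), at least 1.24-fold, and Mcm6 by -1.68 (8.17 against 9.84), at least 1.77-fold lower. Top2a was below background on both arrays, at 6.77 and 7.94. Between high and low of normal mice, 1 of 49 was higher (4.37%), Tyms, and 2 lower (11.9%), Kif23 and Mki67. With the brighter array above background, 0 were higher (0.481%) and Kif23 alone was lower (8.67%), by 2.12 log2 units (7.79 against 9.91). The value of 9.91 lies under the background level of normal blood macrophage high, 10.09, and with both raised to background the difference turned to 0.18. The median of the 49 genes, 0.29, lay below the all-gene median of 0.39 and turned to -0.12 under cyclic loess. Neutrophil and NK cell markers lay on opposite sides of high and low in tumor-bearing and normal mice, as set out above. B cell markers were 7 of 7 on each of these arrays. The differences are taken as high over low by label, and the label did not go with the same markers in tumor-bearing and normal mice. As measured, Kif23 was higher on the array with neutrophil markers in both. The part of these cells was not tested.

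Other genes of the cycle, not in the set, were counted in the same way, and their lists were written with earlier results of the arrays known. Of 33 further replication genes, 4 passed 2-fold upward and 0 downward on tumor MG over normal MG, 3 and 1 on normal MP over normal MG, 0 and 5 on tumor Gr1+ over Gr1- and 0 and 5 on blood Gr1+ over Gr1-. Of 54 further mitosis genes the counts were 16 and 0, 18 and 0, 0 and 25, and 0 and 20. Of all genes, 2.44% were higher and 3.61% lower, 4.35% and 3.11%, 2.88% and 5.12%, and 3.2% and 4.31%, in the same order. Between tumor MP and normal MP the counts were 1 and 0 of 33 and 2 and 1 of 54, where 1.65% of all genes were higher and 3.58% lower. Smc4, a condensin subunit that packs chromosomes, was 10.49 on tumor MG, 10.75 on normal MP and 8.71 on normal MG. Racgap1, the partner of Kif23 in the midbody, went with Kif23 on some arrays and against it on others. It was 8.12 on blood Gr1+, below background where Kif23 was high, against 9.89 on blood Gr1-. It was 7.90 on tumor Gr1+ against 9.78 on tumor Gr1-, and 10.21 on normal MP against 7.48 on normal MG. It was also above background on tumor blood macrophage high (9.81) and normal blood macrophage low (9.66), where Kif23 was high, and highest on tumor blood macrophage low (10.64), where Kif23 was not. On normal blood macrophage high it was 8.80. Stmn1, which breaks down microtubules, was 7.58 on tumor Gr1+ and 9.74 on tumor Gr1-. E2f8 and E2f2 were 9.20 and 9.19 on normal MP and 6.52 and 7.13 on normal MG.

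Genes that govern entry into the cycle or hold it back formed a list of 25, of which 23 were measured, and most were above background, 14 to 18 of 23 on 11 arrays and 4 on normal blood macrophage high. Their counts went both ways in most comparisons, with 2 higher and 1 lower on tumor MG over normal MG, 5 and 1 on normal MP over normal MG, 2 and 2 on tumor Gr1+ over Gr1-, 3 and 2 on blood Gr1+ over Gr1- and 0 and 6 on normal blood macrophage high over low. The shares of all genes are those given above, with 4.37% higher and 11.9% lower in the last comparison. Ccnd2 (cyclin D2, which answers growth signals) was 9.87 on tumor MG, 9.98 on normal MP and 8.26 on normal MG, and 12.38 on tumor blood macrophage low, where Top2a was 7.94. Mxd1, a partner of Max that opposes Myc, was 12.22 on blood Gr1+ against 9.51 on blood Gr1-, 12.89 on tumor blood macrophage high against 10.15 on low, and 10.06 on tumor MG against 8.68 on normal MG. Myc went the other way in these blood comparisons, at 8.84 on blood Gr1+ against 10.32 on blood Gr1-, and with a log2 difference of -2.095 for tumor blood macrophage high over low. It did not on tumor MG, at 10.10 against 9.75 on normal MG. Cdkn1c, an inhibitor of cyclin-dependent kinases, was 10.78 on blood Gr1+ and 8.72 on blood Gr1-. On tumor MP over normal MP, Ccnd3 (cyclin D3) was lower, at 8.44 against 9.84.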

How the data were processed

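The 12 arrays measured RNA of sorted cells after amplification. Per the labels and the submitters' processing notes, the authors background-corrected, normalized and summarized probe intensities with RMA, and deposited them on the log2 scale, with a lowest value of 0. The genome build and annotation release are not given in the sources used here. Amplification and normalization can compress low signals.

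Of 28944 probe sets, 21789 carried 1 symbol in the platform annotation, 1621 several and 5534 none. Only the first kind was used. The brightest probe set stood for each of 19938 genes. Values were used as deposited. A difference of at least 2-fold between 2 arrays was counted, with no test, since each condition had 1 array, and the number of arrays limits precision. Background was the 95th percentile of 1027 olfactory receptor genes per array.

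The members and lists were chosen with earlier results of these data known. Genes were named per comparison when 2-fold apart with the brighter array above background, and array by array for the 12 highest over background and the 4 widest ranges per role. Among the other cycle genes, up to 3 per list and comparison were named, and others named were chosen after their values were seen. The alternatives tried were a floor at background, a 90th percentile for it, the mean of probe sets, and rescaling by median, quantiles or cyclic loess. The counting code was run on simulated data with changes added and no background level, which checks the code and not the results above. Python 3.11.15, numpy 2.4.6, pandas 2.3.3, scipy 1.17.1, matplotlib 3.10.9, R 4.3.3 and limma 3.58.1 were used.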

Additional observations from a re-analysis of the deposited data

Results flagged for a closer look

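Kif23 differed in opposite directions by Gr1 in tumor and blood, at -1.73 log2 units for Gr1+ over Gr1- cells of the tumor brain (7.23 against 8.96) and 1.29 in blood (10.20 against 8.91), where the Gr1- array carries 11 of 11 microglia markers. With values raised to background these were 0.0509 and 1.17, no longer opposite. It also differed in opposite directions between blood macrophage high and low, at 3.52 in tumor-bearing mice (11.31 against 7.79) and -2.12 in normal mice (7.79 against 9.91), which became 2.06 and 0.18 with values raised to background. Mki67 did so too, at 1.39 in tumor-bearing mice (9.56 against 8.17) and -1.43 in normal mice (6.78 against 8.21, below background on both arrays). Each is 1 array against 1, so none of these differences between settings was tested.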

How the results depend on the processing

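Raising values under background to it left 0 genes 2-fold higher on tumor MG, tumor MP or normal MP, 0 lower on tumor MP, 1 and 2 lower on Gr1+ of tumor and blood, 1 higher and 0 lower on tumor blood macrophage high, and 0 and 0 on normal blood macrophage high. It turned the sign of Mcm5 (-0.20), Ccna2 (-0.32), Bub1b (-0.29), Plk1 (-0.14), Tpx2 (-0.0458) and Kif11 (-0.28) on normal MP over normal MG, of Kif23 on tumor Gr1+ over Gr1- (0.0509), of Ccna2 on blood Gr1+ over Gr1- (0.0575) and of Kif23 on normal blood macrophage high over low (0.18), since the background levels of the arrays differ. Of 102 differences past 2-fold, 54 had no value under this floor because both arrays were below it. Quantile and cyclic loess normalization gave 23 genes higher on normal MP over normal MG, and cyclic loess 1 higher on tumor MP over normal MP. Median centring, quantile and cyclic loess normalization gave 1 lower on tumor blood macrophage high and 0 higher on normal blood macrophage high. A background at the 90th percentile put 3 genes above it on normal MG, 19 on tumor MG, 7 on tumor Gr1+, 11 on blood Gr1+, 10 on tumor blood macrophage high, 3 on normal blood macrophage high and 7 on normal blood macrophage low. The mean of probe sets kept the 26 counts within 1.5 times, but moved Top2a, the 1 gene with several probe sets past 2-fold, to 1.25 (tumor MG), 1.44 (normal MP), -1.57 and -1.36 (Gr1+ of tumor and blood) and -0.54 (tumor blood macrophage high). No paired analysis was possible because each condition had 1 array. Signal over background, not the fold, limits most of these differences.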
